A study of Mus musculus with 8 samples.

Results

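Pax6 and Prox1 are the 2 transcription factor genes described here, chosen by name from the 9140 genes of the deposited matrix, and each was followed in its level, its share of cells, its joint detection with the other and its correlated genes. The cells were neural progenitor cells of the mouse dentate gyrus, the hippocampal region where granule neurons are made. They came from embryos at embryonic day 18 per the labels (the study's methods give an earlier embryonic day), of C57BL/6J mothers and Kmt2d+/βgeo fathers, and were profiled by droplet single-cell RNA sequencing, which tags the 3′ end of each captured molecule with a unique molecular identifier (UMI). One group carried the gene-trap allele Mll2Gt(RRt024)Byg of the histone methyltransferase gene Kmt2d on 1 chromosome (Kmt2d+/βgeo), and the other came from littermates with 2 intact copies, labelled C57BL/6J and called wild type here. All cultures were kept undifferentiated with the growth factors EGF and FGF2 (day 0) or collected 2, 4 and 8 days after their removal, with 1 library per genotype and day. There was thus no replicate in any of the 8 groups, no test between groups was run, and every interval below is a 95% interval of counting error only. A culture or an embryo cannot be told apart from a genotype or a day. The labels do not say whether embryos were pooled within a culture.

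Pax6 encodes a paired-box and homeobox factor of radial glia, in which it acts in the choice between renewal and neurogenesis, and it also has a known role in eye development. Prox1 encodes a prospero-related homeobox factor that marks the dentate granule lineage from its intermediate progenitors to mature neurons. Outside that lineage, Prox1 is also known from interneurons, from oligodendrocyte precursors and from lymphatic endothelium. In the developing dentate gyrus, a high Pax6 level is typical of progenitors and a high Prox1 level of cells committed to the granule fate.

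On GRCm38, Pax6 (ENSMUSG00000027168) lies on the forward strand at chr2:105668900-105697364 and Prox1 (ENSMUSG00000010175) on the reverse strand at chr1:190118035-190170714. The antisense gene Prox1os begins within the Prox1 gene and shares 419 bases with its 5′ end. The antisense gene Pax6os1 overlaps the 5′ end of Pax6 and was not analysed here. Of the nonzero Pax6 values, 29.4% were fractions of a UMI, mostly 0.5, and 19.1% of the matrix genes had at least that share. Among the other matrix genes, the largest rise beside a fractional Pax6 value was for a gene with fractions in 42.9% of those cells. That gene had fractions in 34.1% of the other cells. Of the nonzero Elp4 values, 0.98% were fractions. How far the Pax6 fractions hold reads shared with another gene, also one outside the matrix, was not tested. The gene Elp4, a subunit of the Elongator complex, is transcribed toward Pax6 and ends 3662 bases past the end of Pax6. Both members were matched by symbol to the RefSeq promoter windows of GRCm38.p6, each running from 250 bases before to 50 bases after a start site, with 2 start sites per gene. The window of the outer start site of each gene is shown, because the antisense Prox1os, described below, starts between both Prox1 start sites, and the Pax6 window is set beside that of Prox1. The 3′ tags do not tell which start site a transcript used. Each is written 5′ to 3′ on the strand of its gene, and capitals mark, on either strand, the TATA box (TATAAA), the CCAAT box (CCAAT), the core of the GC box (GGGCGG) and the cyclic AMP response element (TGACGTCA), of which no matches overlapped.
Pax6, chr2:105668646-105668945, forward strand: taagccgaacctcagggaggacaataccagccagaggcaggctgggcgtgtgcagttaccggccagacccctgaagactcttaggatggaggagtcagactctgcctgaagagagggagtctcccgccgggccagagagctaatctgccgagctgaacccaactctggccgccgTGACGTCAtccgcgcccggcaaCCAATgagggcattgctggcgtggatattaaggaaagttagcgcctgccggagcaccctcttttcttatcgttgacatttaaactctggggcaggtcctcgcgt
Prox1, chr1:190170778-190171077, reverse strand: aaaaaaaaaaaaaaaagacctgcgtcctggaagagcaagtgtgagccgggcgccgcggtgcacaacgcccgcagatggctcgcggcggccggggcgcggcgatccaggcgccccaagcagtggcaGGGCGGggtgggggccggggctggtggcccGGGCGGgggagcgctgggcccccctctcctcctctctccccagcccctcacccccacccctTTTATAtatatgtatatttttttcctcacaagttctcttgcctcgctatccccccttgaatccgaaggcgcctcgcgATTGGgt
These are base matches and not shown to be bound. The Pax6 window held 1 match to TGACGTCA, the palindrome that CREB-family factors are known to bind, which was present in 1.79% of 32851 promoter windows of the same length, and 1 match to CCAAT, present in 37.4%. The Prox1 window held 2 matches to GGGCGG against 35.7% of windows with at least 1, together with 1 match to TATAAA (13.6% of windows) and 1 to CCAAT. Neither window held the E-box CAGCTG, found in 16.3% of windows, nor the E-box of the form CACGTG, found in 7.15%. The window of the inner Pax6 start site held no match to any of these motifs. That of the inner Prox1 start site held only 1, to GGGCGG. The outer windows contained 18 CpG dinucleotides for Pax6 and 25 for Prox1, against a median of 7 over all windows.

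The 8 libraries held 30408 cells, from 2534 to 4900 each, with a median of 3972 to 11230 UMIs per cell on the matrix genes. The lowest median was that of Kmt2d+/βgeo day 8, where 753 of 2965 cells had fewer than 3000 UMIs. Kmt2d itself does not separate the labels, since its mean normalised count ran from 0.171 to 0.295 in the libraries labelled Kmt2d+/βgeo and from 0.157 to 0.241 in those labelled wild type. The labels and methods do not say whether these 3′ tags read transcripts of the trapped allele, so they give no check of the genotype. The day 4 libraries were close to each other over all genes. Day 4 values are given for both genotypes side by side, and medians and correlations over the libraries are followed by values without the one labelled Kmt2d+/βgeo. Any 2 libraries shared between 0 and 10 cell barcodes. Of the marker lists, the astrocyte genes in the matrix (5 of 8) had a summed mean normalised count of 16.2 and 8.20 at day 0 and of 101 to 252 later, of which Apoe alone made up 94.7 of 101 in Kmt2d+/βgeo and 230 of 238 in wild type at day 8, and the neuron genes in the matrix (3 of 8) one of 3.0 to 4.76 throughout. None of the 8 microglia and 6 fibroblast markers, and only Pdpn of the 11 endothelial markers, was among the matrix genes.

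Pax6 had a higher level after growth factor withdrawal in both genotypes, and the level was still higher at day 8 than at day 0. A level is given here as the mean normalised count per cell, where the counts of every cell add up to 8707.1. At day 0 the Pax6 level was 0.202 in Kmt2d+/βgeo and 0.228 in wild type, from 1291 (1222 to 1363) and 1516 (1441 to 1594) estimated UMIs. It was 0.354 and 0.373 at day 2, 0.395 and 0.432 at day 4, with 0.366 and 0.386 at day 8. All 6 libraries after withdrawal therefore lay above both day 0 libraries. By mean level over all cells, the fold from day 0 was largest at day 4, at 1.95 in Kmt2d+/βgeo (log2 ratio 0.97) and 1.89 in wild type (log2 ratio 0.92). At day 8 the log2 ratio was 0.86 and 0.76, and the same ratio from pooled UMIs was 0.70 (0.55 to 0.86) and 0.67 (0.55 to 0.78). In the order of the 8 levels, each step among the 5 libraries from Kmt2d+/βgeo day 2 up to Kmt2d+/βgeo day 4 was within counting error, although the ends of this run differed by a log2 ratio of 0.20 (0.084 to 0.31) from pooled UMIs. Below it, Kmt2d+/βgeo day 2 stood above wild type day 0 by 0.63 (0.53 to 0.73), and the wild-type day 4 library stood above the next one by a log2 ratio of 0.13 (0.015 to 0.24).

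Prox1 was higher at day 2 than at day 0 in both genotypes, and at day 8 the wild-type library was back near its day 0 level, while the value in Kmt2d+/βgeo depended on how depth was treated. Its level was 0.198 in Kmt2d+/βgeo and 0.206 in wild type at day 0, and 0.310 and 0.326 at day 2, a log2 ratio to day 0 of 0.65 and 0.67. At day 4 the Prox1 level was 0.294 and 0.297. At day 8 it was 0.275 in Kmt2d+/βgeo, from 348 (312 to 387) estimated UMIs, and 0.221 in wild type, from 562 (516 to 610). The wild-type day 8 level was thus below those of days 2 and 4 and close to that of day 0, with a log2 ratio to day 0 of 0.10 and of 0.098 (-0.049 to 0.24) from pooled UMIs, an interval that includes 0. In Kmt2d+/βgeo the log2 ratio of day 8 to day 0 was 0.47, and 0.42 (0.24 to 0.60) from pooled UMIs, and its size depended on depth. With each cell thinned once to 3000 UMIs, as described below, it was 0.17 (-0.097 to 0.44). As the mean over every possible thinning it was 0.29 (0.099 to 0.49), which for a log2 ratio is the mean-level ratio in cells of at least 3000 UMIs. In cells of 3000 to 8000 UMIs it was 0.061. The Kmt2d+/βgeo log2 ratio of day 8 to day 2 was -0.18 by mean level, with a pooled interval that included 0. It was -0.31 (-0.57 to -0.067) in 1 thinning and -0.36 (-0.55 to -0.17) as the mean over every thinning, both without the shallow cells. By mean level Prox1 was highest at day 2 in both genotypes and Pax6 at day 4. The order of days 2 and 4 was not firm for Prox1. Its pooled log2 ratio of day 4 to day 2 was -0.084 (-0.22 to 0.047) in Kmt2d+/βgeo and -0.14 (-0.27 to -0.019) in wild type, which in 1 thinning was -0.17 (-0.37 to 0.038), and in Kmt2d+/βgeo cells of 3000 to 8000 UMIs the ratio to day 0 was higher at day 4 (0.95) than at day 2 (0.69). For Pax6 the mean-level log2 ratio of day 4 to day 2 was 0.16 (0.050 to 0.27) and 0.21 (0.10 to 0.32), with interval widths from pooled UMIs. In 1 thinning of Kmt2d+/βgeo it was 0.036 (-0.17 to 0.24). In Kmt2d+/βgeo cells of 3000 to 8000 UMIs the Pax6 ratio to day 0 was 1.16 at day 2 and 1.13 at day 4, so this order was not firm either. In the order of the 8 Prox1 levels, only the step from wild type day 8 up to Kmt2d+/βgeo day 8 exceeded its counting interval, at a log2 ratio of 0.31 (0.12 to 0.51).

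**Figure D1:**
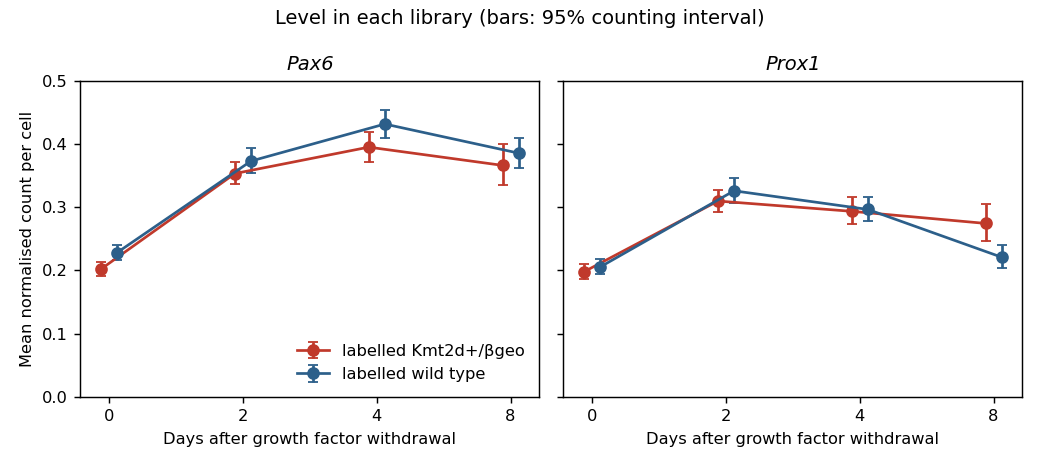
Mean normalised count per cell (vertical axis) of Pax6 (left) and Prox1 (right) against days after growth factor withdrawal, with 1 point per library and bars for the 95% counting interval. All Pax6 levels after withdrawal lie between 0.354 and 0.432, above the 0.202 and 0.228 of day 0, while the Prox1 levels of 0.310 and 0.326 at day 2 are the highest of each genotype and that gene is at 0.221 in the wild-type library at day 8.

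The share of cells with a Pax6 UMI was also higher after withdrawal, but it is no separate support. At 0.071 to 0.147 thinned UMIs per cell, this share follows the mean level closely. For this share each cell was thinned to 3000 UMIs, so that libraries of unequal depth could be set side by side, and shallower cells were left out (753 of the Kmt2d+/βgeo day 8 library, 24 of Kmt2d+/βgeo day 0, 4 of wild type day 8). The thinned Pax6 share was 6.66% and 7.49% at day 0, 11.2% and 11.6% at day 2, 11.5% and 13.1% at day 4, with 11.4% and 12.7% at day 8, for Kmt2d+/βgeo and wild type in turn. The thinned Prox1 share was 6.55% and 6.32% at day 0, 9.14% and 10.2% at day 2, 9.12% and 9.20% at day 4, with 8.05% and 6.98% at day 8. Without thinning, 16.7% to 37.2% of cells had a Pax6 UMI and 11.0% to 22.5% a Prox1 UMI, the lowest value of each in the shallow day 8 library labelled Kmt2d+/βgeo. No cell class known to lack these genes was named here, so the part of free RNA in these shares was not tested. A larger share of Pax6-expressing cells and more Pax6 RNA per cell cannot be told apart, either in a bulk reading of these libraries or by these shares.

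By mean level neither gene passed a log2 ratio of 1 at day 8 in either genotype, the size used here to count a change, although Pax6 in Kmt2d+/βgeo was at 1.06 in cells of 3000 to 8000 UMIs. Of the genes compared, 16.3% were higher and 10.9% lower by that size in wild type at day 8 than at day 0, and 19% were higher and 13.9% lower in Kmt2d+/βgeo. In the wild-type comparison 78.1% of genes had a lower ratio than Pax6 and 52.8% a lower ratio than Prox1, and in Kmt2d+/βgeo these shares were 77.1% and 64.3%. The wild-type Prox1 ratio is therefore near the middle of all genes.

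Between the genotypes, Pax6 was lower in Kmt2d+/βgeo on each of the 4 days, by small amounts. The log2 ratio of Kmt2d+/βgeo to wild type was -0.17 at day 0, -0.078 at day 2, -0.13 at day 4 and -0.074 at day 8. From pooled UMIs it was -0.18 (-0.28 to -0.068) at day 0 and -0.13 (-0.24 to -0.013) at day 4, while the intervals of days 2 and 8 included 0. In 1 thinning, which leaves fewer UMIs, it was -0.18 (-0.41 to 0.035) at day 0 and -0.24 (-0.44 to -0.032) at day 4. As the mean over every thinning, which is the mean-level ratio in cells of at least 3000 UMIs, it was -0.18 (-0.29 to -0.071) at day 0. It was -0.19 (-0.36 to -0.023) at day 8. At day 4 no cell was left out, so this measure only repeats the ratio of -0.13 above. These intervals have the width of the unthinned pooled UMIs. At day 4, where the libraries were close over all genes, 5.16% of genes had a lower ratio than Pax6, against 30.6% to 41.3% on the other days. With 1 library per group, whether these differences exceed the spread between cultures was not tested. For Prox1 the log2 ratio was -0.054, -0.074 and -0.015 on days 0, 2 and 4, each with a pooled interval that included 0, and 0.31 at day 8. The day 8 difference was 0.27 (0.072 to 0.47) from pooled UMIs, but it was 0.14 (-0.075 to 0.35) as the mean over every thinning, and 0.012 when only cells of 3000 to 8000 UMIs were compared. Neither member passed a log2 ratio of 1 between the genotypes, whereas 0.674% of all genes were higher and 0.871% lower by that size in Kmt2d+/βgeo at day 0, and 2.06% and 2.81% at day 8.

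Pax6 was found more often in dividing cells before withdrawal, and Prox1 was not. Top2a encodes topoisomerase II alpha, which is made in S, G2 and M phases. In the day 0 library labelled Kmt2d+/βgeo, 9.42% of the 1614 cells with a Top2a UMI had a Pax6 UMI, against 5.01% of the 2693 cells without one, a difference of 4.40 percentage points (2.80 to 6.11). In the day 0 wild-type library the shares were 10.5% of 1636 cells and 5.96% of 3221 cells, a difference of 4.55 points (2.91 to 6.31). Both day 0 libraries thus showed a similar difference. For Prox1 the shares at day 0 were 6.13% with Top2a and 6.79% without in Kmt2d+/βgeo, and 6.11% and 6.43% in wild type, and both intervals of the difference included 0 (-2.14 to 0.90 and -1.71 to 1.2 points). After withdrawal, cells with a Top2a UMI were few, 54 to 90 in the 5 libraries that had at least 50, and no Pax6 or Prox1 difference there exceeded its counting interval. All cells of these shares were thinned once to 3000 UMIs. The mean over every possible thinning does not depend on that draw, and for Pax6 by Top2a at day 0 it gave differences of 4.07 and 4.15 points.

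After withdrawal, Prox1 was found more often in cells with Olig2 and less often in cells with Slc1a3, on days 2 and 4 of both genotypes. Olig2 encodes a basic helix-loop-helix factor of ventral progenitors and the oligodendrocyte lineage, and its level was 5.53 at day 0 and 1.48 at day 8 in Kmt2d+/βgeo, and 8.09 and 0.911 in wild type. At day 0, Prox1 was found in 6.16% of cells with an Olig2 UMI and 7.53% of those without in Kmt2d+/βgeo, and in 6.13% and 7.41% in wild type, with both intervals including 0. At day 2 the shares with and without Olig2 were 11.4% and 6.39% in Kmt2d+/βgeo, a difference of 5.01 points (3.42 to 6.58), and 12.2% and 6.39% in wild type, a difference of 5.79 points (3.97 to 7.53). At day 4 they were 15.4% and 6.53% (8.86 points, 6.14 to 11.8) and 14.6% and 7.01% (7.60 points, 5.30 to 10.1). Both libraries of a day had the higher share in the cells with Olig2, and the shares in cells without Olig2 stayed between 6.39% and 7.92% on every day. At day 8 the difference was 3.34 points (0.74 to 6.53) in wild type and 0.56 points (-1.95 to 3.53) in Kmt2d+/βgeo. As means over every thinning, the differences of days 2 and 4 were 4.73 to 8.56 points, and those of day 8 were 4.37 points in wild type and 0.95 in Kmt2d+/βgeo.

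With Slc1a3, the glial glutamate transporter of radial glia and astrocytes, the Prox1 share was lower. At day 2, Prox1 was found in 8.35% of the 4527 cells with an Slc1a3 UMI and in 18.8% of the 373 without in Kmt2d+/βgeo, and in 9.43% of 3872 and 22.6% of 226 in wild type. At day 4 the shares were 8.33% and 21% in Kmt2d+/βgeo and 8.34% and 21.1% in wild type. The differences in these 4 libraries ran from 10.4 to 13.1 points lower with Slc1a3, and without the day 4 library labelled Kmt2d+/βgeo the other 3 span the same range. At day 0 the difference was -3.53 points (-6.60 to -1.05) in Kmt2d+/βgeo and -0.29 points (-3.40 to 1.96) in wild type, and at day 8 it was 1.63 points (-2.86 to 4.60) and -2.02 points (-7.15 to 1.46). The means over every thinning were 10.3 to 12.4 points lower on days 2 and 4, -1.95 and -1.48 points at day 0, and -0.18 and -3.83 points at day 8, where the sign in Kmt2d+/βgeo turned. Sox9, a glial and stem cell factor, gave the same direction on days 2 and 4, with Prox1 in 7.33% to 8.34% of cells with Sox9 and in 10.6% to 12.5% of cells without, and with differences of -4.90 to -3.10 points as means over every thinning. Other progenitor and astrocyte genes did not all go this way in that 1 thinning. The Prox1 share was lower past its interval with Hopx and with Slc1a2 in 4 of 8 libraries each and with Gja1 in 3 of 8, but higher with Notch1 in 3 of 8 and with Apoe in 1 of the 2 libraries compared.

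Pax6 leaned the opposite way from Prox1 at day 4. The day 4 libraries were close to each other over all genes, and whether they count as separate observations was not tested. Pax6 was found in 7.69% of cells with Olig2 and 13.1% of cells without in Kmt2d+/βgeo (-5.36 points, -7.73 to -2.75), and in 9.58% and 14.5% in wild type (-4.96 points, -7.15 to -2.58). These differences were smaller as means over every thinning, at -2.87 and -2.99 points. At day 2 this difference was past counting error in wild type (-4.16 points, -6.36 to -2.06) but not in Kmt2d+/βgeo (-1.18 points, -2.98 to 0.60), and the means over every thinning lay closer together, at -2.98 and -1.78 points. With Sox9 the Pax6 share at day 4 was 12.7% against 8.68% without in Kmt2d+/βgeo and 14.5% against 10.3% in wild type. With Slc1a3 it was 13.6% against 6.75% in wild type at day 4, a difference of 6.81 points (2.72 to 9.64), and in Kmt2d+/βgeo the difference was 4.77 points (-0.48 to 8.11). The means over every thinning kept these directions at day 4, with 2.9 and 2.31 points by Sox9 and with 4.24 and 5.49 by Slc1a3, for Kmt2d+/βgeo and wild type in turn. At day 8 no Pax6 difference by Olig2, Sox9 or Slc1a3 exceeded its interval in either library.

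**Figure D2:**
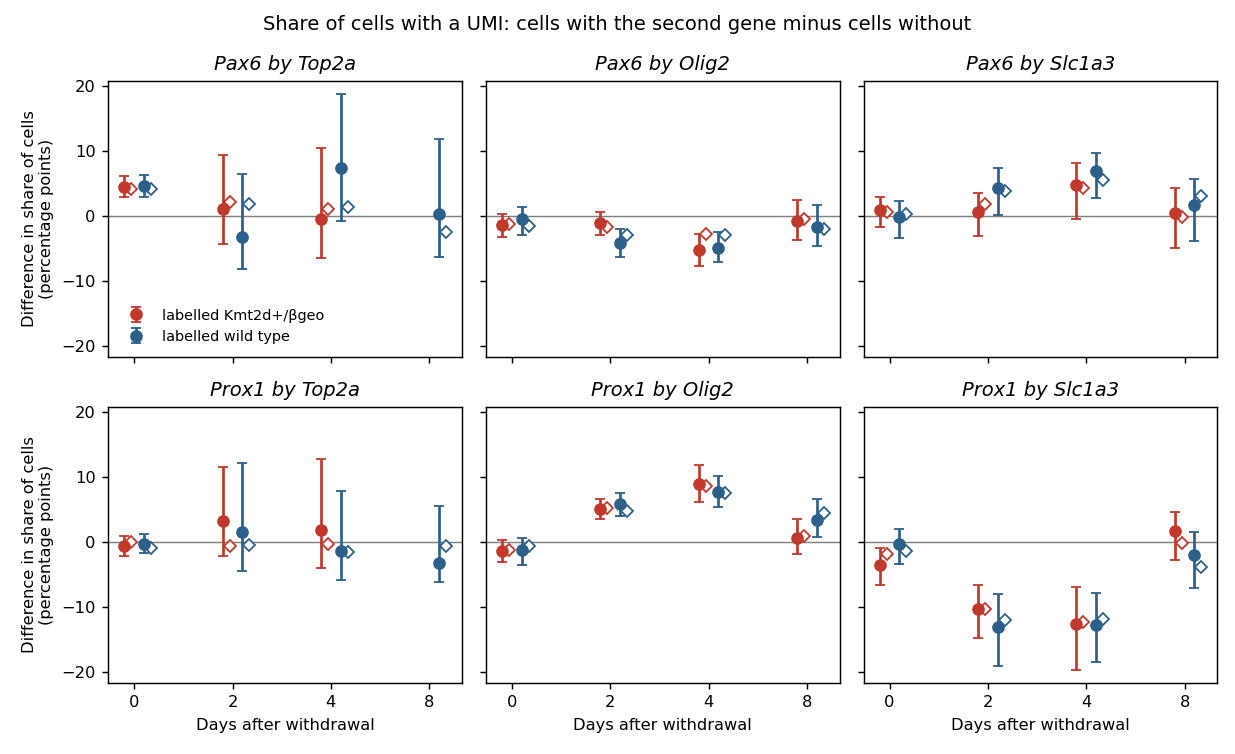
Difference in the share of cells with a Pax6 UMI (top) or a Prox1 UMI (bottom) between cells with and without a UMI of Top2a, Olig2 or Slc1a3 (percentage points, vertical axis), by days after withdrawal, in cells thinned to 3000 UMIs, with filled points for 1 thinning, bars for its 95% Newcombe counting interval, open diamonds for the mean over every thinning, and only libraries with at least 50 cells on each side. Pax6 stands at 4.40 and 4.55 points with Top2a at day 0, and Prox1 is 5.01 to 8.86 points higher with Olig2 and 10.4 to 13.1 points lower with Slc1a3 on days 2 and 4 in that thinning, while the diamonds of Pax6 by Olig2 at day 4 lie nearer to 0 than the points.

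Gad1, the enzyme that makes the transmitter GABA, was also set beside Prox1, because Prox1 is known from interneurons. In wild type, Prox1 was found in 14.7% of 224 cells with Gad1 and 9.89% of those without at day 2, and in 18.1% of 116 and 8.90% at day 4, differences of 4.85 (0.68 to 10.2) and 9.21 points (3.18 to 17.3). As means over every thinning these were 4.51 and 5.55 points. At day 8 the wild-type difference was 5.82 points in that thinning but 1.86 as the mean over every thinning (8.86% with Gad1 and 7.01% without), so no difference is read there. In Kmt2d+/βgeo the differences at days 2, 4 and 8 were 2.70, 4.04 and 6.09 points, and all 3 intervals included 0. The means over every thinning were 2.97, 3.85 and 2.13 points. Gad1 was the only one of the 12 listed genes of the ventral telencephalon and interneurons in the matrix.

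Cells with both a Pax6 and a Prox1 UMI were about as frequent as the product of the single shares gives. The observed count divided by that product was 1.12 and 0.91 at day 0, 0.97 and 0.83 at day 2, 1.02 and 1.04 at day 4, and 0.77 in wild type at day 8, and each of these 7 intervals included 1. In the day 8 library labelled Kmt2d+/βgeo, 38 of 2212 thinned cells held both, 1.87 times the product (1.32 to 2.56). That value was 1.04 (0.57 to 1.75) when cells were thinned to 5000 UMIs, which left 658 of its cells, and 1.42 as the mean over every possible thinning to 3000, which gave 0.89 to 1.15 in the other 7 libraries. Without thinning, the ratio was 1.28 and 1.21 in the day 0 libraries. The day 8 library labelled Kmt2d+/βgeo then had 1.32. All remaining libraries lay between 0.93 (wild type day 8) and 1.06 (wild type day 2). At the equal depth of 3000 UMIs the day 0 ratios were 1.12 and 0.91 in 1 thinning, and 1.15 and 1.02 as means over every thinning. Thinning also lowers the counts, so the part of unequal depth alone in the unthinned ratios was not tested. Across the cells of a library, the correlation (Pearson's r of log2(thinned UMIs + 1)) of Pax6 with Prox1 ran from -0.022 to 0.0079 in 7 libraries and was 0.085 in Kmt2d+/βgeo at day 8, in 2212 to 4900 cells.

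The genes that varied most with Prox1 across cells included Olig2 at one end and Slc1a3 at the other, and their correlations were weaker at day 0 than on days 2 and 4. Among the 5143 genes with a thinned UMI in at least 5% of the cells of every library, the highest medians of r over the 8 libraries were those of Ncald (0.089), a neuronal calcium sensor, Chd7 (0.087), a chromatin remodeller, Lrrn1 (0.086), a leucine-rich repeat membrane protein, Olig2 (0.080) and Eef1a1 (0.074), a translation elongation factor. The lowest were Mt3 (-0.14) and Mt2 (-0.099), both metallothioneins, Cst3 (-0.11), the secreted protease inhibitor cystatin C, Slc1a3 (-0.099) and Prdx6 (-0.095), a peroxiredoxin. Chd7 had r of 0.033 and 0.0030 at day 0, 0.14 and 0.12 at day 2, 0.18 and 0.11 at day 4, with 0.013 and 0.064 at day 8. Mt3 had r of -0.034 and 0.023 at day 0, and -0.17, -0.18, -0.19 and -0.17 in the 4 libraries of days 2 and 4. The gene most correlated with Prox1 was Chd7 in both Kmt2d+/βgeo libraries of days 2 and 4, and Rev3l, Tmsb4x and Lrrn1 in the wild-type libraries of days 2, 4 and 8. At day 0 it was Ube4a in Kmt2d+/βgeo and Pnrc1 in wild type, with r of 0.077 and 0.090. In Kmt2d+/βgeo at day 8 it was Pax6 itself, at the r of 0.085 given above. That place rests on 1 thinning, in which the joint detection ratio of this library was 1.87, against 1.42 as the mean over every thinning. Without the day 4 library labelled Kmt2d+/βgeo, these same genes were followed over 7 libraries, and all genes were not ranked anew. The medians of the 5 that were highest over 8 libraries then ran from 0.049 (Olig2) to 0.086 (Ncald), with 0.064 for Chd7. Those of the 5 that were lowest ran from -0.11 (Mt3) to -0.069 (Mt2), with -0.071 for Slc1a3.

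Pax6 had weaker correlates, which in UMI counts this sparse are no more than a description. Its highest medians were those of Nde1 (0.032) and Ckap5 (0.031), which act at the centrosome and the spindle, Limch1 (0.031), Phgdh (0.030), the first enzyme of serine synthesis, and Add3 (0.029). Olig2 was lowest (-0.034), with r from -0.076 to -0.015 and below 0 in all 8 libraries, followed by Xylt1, Rpl19, Acap3 and Luzp1 at -0.026. Without the day 4 library labelled Kmt2d+/βgeo the same 5 genes had medians of 0.026 to 0.032, and Olig2 one of -0.034, with no new ranking of all genes. This order depended on the treatment of depth, since without thinning Prdx6 was highest (0.071) and 1 of the 5 highest and 2 of the 5 lowest genes were shared, with Olig2 again lowest (-0.074). By Spearman's rho on the thinned cells, 3 of the 5 highest and 1 of the 5 lowest were shared. At day 0 the gene most correlated with Pax6 was Smc2, a condensin subunit of dividing cells, in both libraries (r = 0.094 in 4307 Kmt2d+/βgeo cells and 0.11 in 4857 wild-type cells). On later days it was a different gene in each library, Cdkn2c, Dtnb, Ski, Glud1, Rpf1 and Washc2, with r of 0.056 to 0.094.

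**Figure D3:**
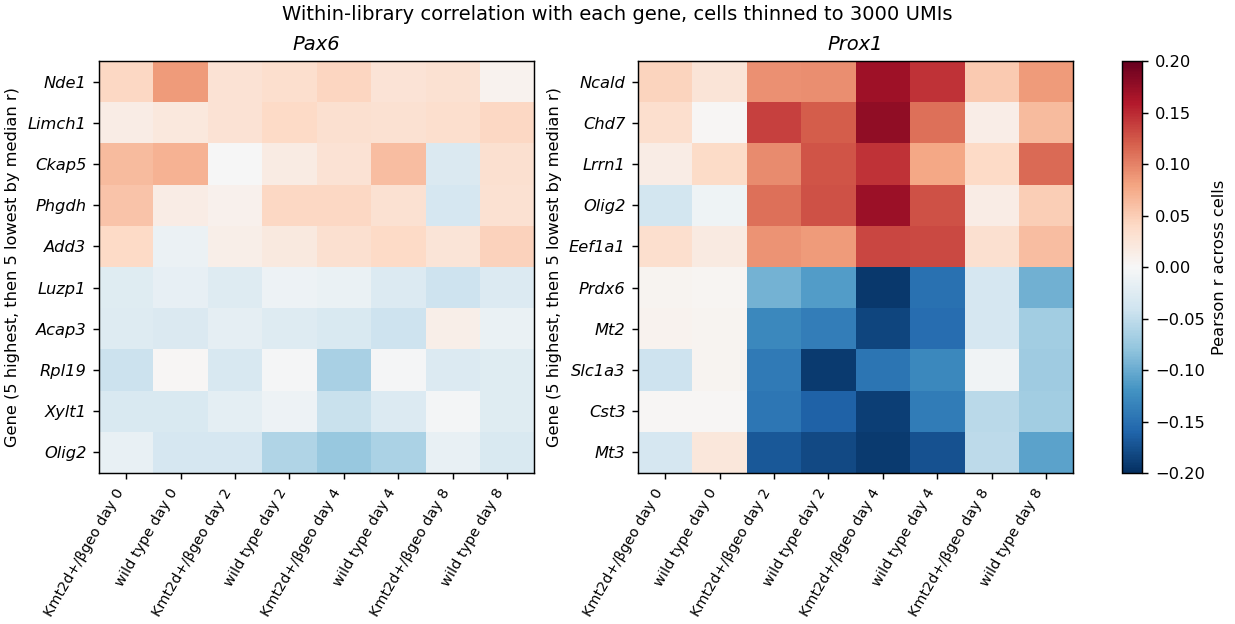
Pearson's r across the cells of each library (colour) between Pax6 (left) or Prox1 (right) and the 5 genes with the highest and the 5 with the lowest median r, with libraries in columns and cells thinned to 3000 UMIs. The Prox1 panel is pale at day 0 and strongest on days 2 and 4, where r reaches 0.18 for Chd7 and -0.19 for Mt3, and the Pax6 panel stays within -0.076 and 0.085.

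Levels over the libraries were compared as log2(mean normalised count + 0.01), over only 8 points of which each day contributed 2. Pax6 and Prox1 had r = 0.78 with each other (0.76 over 7 libraries without the day 4 one labelled Kmt2d+/βgeo). Of 8078 genes, the 3 most like Pax6 were Slc48a1 (r = 0.99), a heme transporter, Aldh6a1 (0.99), a mitochondrial dehydrogenase, and Tom1 (0.99), and the 3 most opposed were Pkd1, Calu and Cenpp (-0.99 each). Without that day 4 library these 3 top genes still had r of 0.99, but other genes took the 3 top places, while the same 3 were lowest. For Prox1 the top 3 were Nr3c1 (0.98), the glucocorticoid receptor, Zfp707 (0.97) and Vegfb (0.97), and the bottom 3 were Timm17a (-0.98), Faf1 (-0.97) and Hprt (-0.97), and the same 6 genes were the 3 highest and the 3 lowest over 7 libraries. The level of Nr3c1 was 0.662 and 0.818 at day 0, 1.33 and 1.58 at day 2, 1.4 and 1.3 at day 4, with 1.24 and 0.883 at day 8. This gene was picked for its likeness to Prox1 over these same libraries, so its course is no separate support. As many as 556 genes had r over 0.9 with Pax6 and 77 with Prox1, and 580 and 84 without that day 4 library.

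Prox1os, of which 104 to 467 UMIs were counted per library, had larger log2 ratios to day 0 than Prox1 itself. It reached the minimum level of 0.1 used to compare genes only in Kmt2d+/βgeo at day 2. At day 8 it was therefore not among the genes compared. Its level in Kmt2d+/βgeo and wild type was 0.0302 and 0.0250 at day 0, 0.109 and 0.0840 at day 2, 0.0505 and 0.0632 at day 4, with 0.0985 and 0.0423 at day 8. The log2 ratio of day 2 to day 0 was 1.84 and 1.75, or 1.89 (1.63 to 2.16) and 1.8 (1.51 to 2.10) from pooled UMIs, and all later libraries were above both day 0 libraries. At day 8 Prox1os was higher in Kmt2d+/βgeo by a log2 ratio of 1.22, or 1.19 (0.80 to 1.58) from 122 and 104 pooled UMIs, but by 0.71 (0.16 to 1.26) in 1 thinning and 0.99 (0.57 to 1.40) as the mean over every thinning. In cells thinned to 3000 UMIs it was found in 2.76% and 1.68% of cells at day 8. Cells thinned to 3000 UMIs that held both Prox1 and Prox1os were 0.81 to 2.12 times as frequent as the product of the shares, and the interval was above 1 in 1 of 8 libraries, Kmt2d+/βgeo at day 2 (1.71, 1.15 to 2.44). Which libraries were above 1 depended on depth. At 5000 UMIs they were both libraries of day 4 and wild type at day 2, with Kmt2d+/βgeo at day 2 at 1.27 (0.95 to 1.66), and without thinning they were 5 of 8. The sources used here do not state a strand setting for the counting, so over the shared 419 bases reads of Prox1 and Prox1os may not be told apart. Those bases lie at the 5′ end of Prox1, whereas the libraries tag 3′ ends. Fractions of a UMI made up 0 of the 1530 nonzero Prox1os values and 0.49% of those of Prox1. How far reads of both genes are mixed was not tested.

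Elp4, the neighbour past the end of Pax6, followed Pax6 until day 4 and then parted from it in 1 genotype. Its level was 0.369 and 0.320 at day 0, 0.583 and 0.536 at day 2, 0.597 and 0.586 at day 4, with 0.246 and 0.478 at day 8. The log2 ratio of day 4 to day 0 was 0.69 and 0.87, beside 0.97 and 0.92 for Pax6. From day 0 to day 8 it was -0.59 in Kmt2d+/βgeo and 0.58 in wild type, with pooled intervals on either side of 0 (-0.74 to -0.41 and 0.48 to 0.68). In thinned cells of day 8, Elp4 was found in 8.32% (7.20% to 9.55%) of Kmt2d+/βgeo cells and 15.0% (13.8% to 16.3%) of wild-type cells, while the Pax6 shares of the same cells were 11.4% and 12.7%. Of the other genes near Pax6, Rcn1, a calcium-binding protein of the endoplasmic reticulum, was lower at day 8 than at day 0 by log2 ratios of -0.96 and -1.46, and Immp1l and Dnajc24 were higher (0.97 and 0.32, and 0.68 and 0.82). Near Prox1, the lysine methyltransferase gene Smyd2 was lower (-0.46 and -0.65), and Ptpn14 and Rps6kc1 had ratios of day 8 to day 0 between -0.19 and 0.47. The other family genes in the matrix, Pax9 and Prox2, were low, with Pax9 at a level of 0.060 to 0.127 and Prox2 under the minimum of 0.1 at days 0 and 8.

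**Figure D4:**
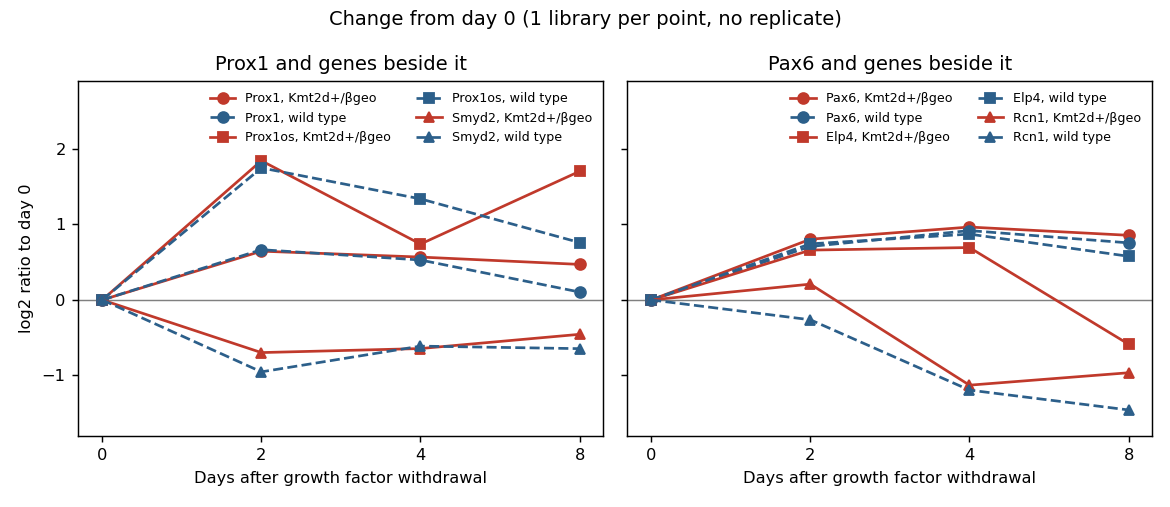
Log2 ratio of each library's level to day 0 of the same genotype (vertical axis) against days after withdrawal, for Prox1, Prox1os and Smyd2 (left) and Pax6, Elp4 and Rcn1 (right), with 1 library per point and no replicate. Prox1os reaches 1.84 and 1.75 at day 2, and Elp4 ends at -0.59 in Kmt2d+/βgeo and 0.58 in wild type while Pax6 ends at 0.86 and 0.76.

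The genes that usually accompany Pax6 and Prox1 on the way to granule neurons were mostly outside the matrix, so the pathway can be read only in part. Of the 16 genes listed for the neurogenic cascade only Tcf4, a partner of proneural factors, was in the matrix, and its log2 ratio of day 8 to day 0 was -0.52 in Kmt2d+/βgeo and -0.58 in wild type. Of the 13 granule lineage genes, Ncam1 and Sema5a were present. Ncam1, a neural cell adhesion molecule, had log2 ratios of -0.20 and 0.57. Sema5a, a guidance cue, was lower by more than 1 in both genotypes (-2.39 and -1.96), beside 13.9% and 10.9% of all genes. Its levels were 0.202 and 0.104 at day 0 and 0.0385 and 0.0266 at day 8, so it passed the minimum of 0.1 only through day 0. With a minimum of 0.5, or on mean log2 values, 0 granule lineage genes were lower by at least 1 in either genotype.

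Hippocampal patterning genes were better covered, with 9 of 18 in the matrix. In Kmt2d+/βgeo 2 of 9 compared were higher by at least 1 at day 8 and 0 were lower, and in wild type 2 of 8 and 0. These shares stand beside the 19% and 16.3% of all genes that were higher by that size. Zbtb20, which is required for hippocampal identity, was higher in both (log2 ratios 1.98 and 1.61). In the Notch and Wnt list 2 of 6 genes compared were higher by at least 1 in Kmt2d+/βgeo and 1 of 7 in wild type, and 0 were lower. These shares stand beside the same 19% and 16.3%. Notch2, a Notch receptor, was higher in both (3.28 and 2.47), and Notch1 had log2 ratios of 0.67 and 0.32. Of the 10 cycle genes, 7 were lower by at least 1 in each genotype, beside the 13.9% and 10.9% of all genes, Top2a by the most (-5.99 and -4.75). The astrocyte list had 3 of 5 higher in Kmt2d+/βgeo and 4 of 5 in wild type, beside the 19% and 16.3% of all genes. Among them were Gja1, a gap junction protein (3.83 and 4.33), Apoe (2.75 and 5.29) and Slc1a2 (2.06 and 1.09), while Aldh1l1 had log2 ratios of -0.33 and 0.23. These counts depended on the scale. On mean log2 values, in Kmt2d+/βgeo and wild type, 2 and 1 of the 10 cycle genes were lower by at least 1, 2 of 5 astrocyte genes were higher in each, 1 of the patterning genes was higher in each, and 0 of the Notch and Wnt genes were. The shares of all genes were smaller too on that scale, with 1.03% and 1.25% higher and 2.49% and 1.65% lower. The neuron list had 2 of 3 higher in Kmt2d+/βgeo and 0 of 2 compared in wild type, beside the 19% and 16.3% of all genes. Of these, Map2, a microtubule-associated protein, had log2 ratios of 0.44 and 0.25, and Gap43, a growth cone protein, 1.0 and 0.66. Rbfox3, a nuclear protein of neurons, had a level of 0.113 at day 8 and 0.0054 at day 0 in Kmt2d+/βgeo, so it passed the minimum of 0.1 only through day 8, and at 0.047 and 0.017 in wild type it was not compared. With no minimum the wild-type count was 1 of 3, and with a minimum of 0.5 the Kmt2d+/βgeo count was 1 of 2. On mean log2 values 0 neuron genes were higher by at least 1 in either genotype. The neural progenitor list had 1 of 5 higher and 1 lower in Kmt2d+/βgeo, and 2 of 5 higher and 0 lower in wild type. Beside these stand the 19% and 16.3% higher and the 13.9% and 10.9% lower of all genes. Prom1 was higher in both (2.60 and 4.46), but from day 0 levels of 0.0238 and 0.0167 it passed the minimum only through day 8. Vim had log2 ratios of 0.31 and 1.52, and Fabp7 of -1.20 and -0.80. Pdpn, of the endothelial list, had 2.05 and 1.67. The levels of both Pax6 and Prox1 were thus measured in cultures whose astrocyte genes were mostly higher and whose cycle genes were mostly lower at day 8 by mean normalised count, and the part of this shift in the change of either gene was not tested.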

How the data were processed

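Droplet single-cell RNA libraries of hippocampal progenitor cultures were analysed, with 1 library for each genotype and day. As the study's methods describe, the authors counted molecules with Alevin against a GRCm38 index, took spliced counts as expression, and removed low-quality cells and doublets before deposit. Salmon 1.3.0 and Seurat 3.2.2 are listed in the submitters' processing notes. The deposited matrix holds log2 normalised counts, log2(normalised count + 1), of 9140 genes. The authors also deposited the total UMIs of each cell as an estimated count.

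The log2 values were turned back into normalised counts, which summed to 8707.1 in every cell. The commonest value of a cell was taken as 1 UMI, and 86.8% of nonzero values then lay within 0.01 of a whole number. For Pax6, 29.4% of nonzero values were not whole, mostly at 0.5, against 0.49% for Prox1, and what these values stand for was not tested. These were rounded up or down at random with a fixed seed before thinning. Each cell was thinned to 3000 UMIs without replacement and shallower cells were left out. Shares by a second gene come from 1 such thinning, and the mean over every possible thinning, for shares and log2 ratios, was added after the data were seen. For a log2 ratio this mean equals the mean-level ratio in cells of at least 3000 UMIs. It therefore differs from the main ratio only where shallower cells were left out.

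Because every group holds 1 library, no test was run. Shares have exact Clopper-Pearson intervals, differences of shares Newcombe intervals, summed UMIs exact Poisson intervals and ratios of pooled or thinned UMIs exact conditional intervals, all at 95% and for counting error only. Ratios in the order of levels, and mean-level ratios or means over every thinning, have the width of the pooled interval, centred on the ratio of mean levels. That width ignores the equal weight of cells in a mean level. The interval of a joint count divided by the product holds the product fixed. Genes were compared where the mean normalised count reached 0.1 in at least 1 library, and a change was counted from an absolute log2 ratio of 1. The members, gene lists and tests were chosen with earlier results of these data known. Named genes were the members, genes beside them, up to 3 of the highest members of each list with those past the threshold in both genotypes, and the extremes of each correlation. Shares were computed for a fixed list of partner genes and the other listed genes, and the 5 described (Gad1, Olig2, Slc1a3, Sox9 and Top2a) were picked after their values were seen. The scripts were tested on simulated data. Python 3 with numpy, scipy, pandas and matplotlib was used. The alternatives changed the scale, the thinning depth, the cells, the filter, the pseudocount and the day 4 library.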

Additional observations from a re-analysis of the deposited data

Results flagged for a closer look

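Elp4, just past the end of Pax6, moved in opposite directions in the genotypes, and the difference was not tested, since each group holds 1 library. Its log2 ratio of day 8 to day 0 was -0.59 in Kmt2d+/βgeo and 0.58 in wild type. On days 0 and 2 it was higher in Kmt2d+/βgeo, with log2 ratios to wild type of 0.21 and 0.12, and on day 8 it was lower (-0.96). The day 8 library labelled Kmt2d+/βgeo is also the shallowest. With all cells thinned to 3000 UMIs, the log2 ratio of Elp4 was -0.91 between the genotypes at day 8, and that of day 8 to day 0 was -0.56 in Kmt2d+/βgeo and 0.53 in wild type.

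Other genes near the members also had effects of opposite sign past counting error, none of them tested. Rcn1 had a log2 ratio of Kmt2d+/βgeo to wild type of -0.10 at day 0 against 0.37 and 0.39 on days 2 and 8, and of day 2 to day 0 of 0.21 in Kmt2d+/βgeo and -0.26 in wild type. Smyd2 had genotype ratios of -0.051 at day 0 against 0.20 and 0.14 on days 2 and 8. Ptpn14 had genotype ratios of -0.30 and -0.24 on days 0 and 8 against 0.27 at day 2. The Ptpn14 log2 ratio to day 0 was 0.25 in Kmt2d+/βgeo and -0.32 in wild type at day 2, and 0.22 and -0.18 at day 4. Neither Pax6 nor Prox1 showed effects of opposite sign that were both past counting error.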

How the results depend on the processing

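No paired analysis by replicate number was possible because the groups compared share fewer than 2 replicate numbers, and a comparison of the genotypes with the 4 days as pairs was not run. Every log2 ratio of Pax6 and Prox1 kept its value within counting error without the deepest 5% of cells, and 10 of 10 Pax6 ratios did so with whole UMIs only. From pooled UMIs 1 of 20 ratios moved beyond counting error, Pax6 at day 2 in Kmt2d+/βgeo (0.69). As means over every thinning, an alternative added after the data were seen, 1 of 20 moved, Prox1 at day 8 over day 0 in Kmt2d+/βgeo (0.29). In the 1 thinning 4 moved: Pax6 at day 4 over day 0 in Kmt2d+/βgeo (0.82), Prox1 at days 2 and 8 over day 0 in Kmt2d+/βgeo (0.49 and 0.17), and Prox1 between genotypes at day 0 (0.14). Differences of mean log2 values are on a smaller scale, since a pseudocount of 1 is large beside these levels. The level alone did not set the mean log2 value. In Kmt2d+/βgeo, Pax6 had a level of 0.366 at day 8 and 0.354 at day 2, but mean log2 values of 0.263 and 0.319. These libraries had medians of 3972 and 7566 UMIs per cell, and the part of depth was not tested. For Pax6 over day 0 the differences of mean log2 values were 0.12, 0.16 and 0.060 in Kmt2d+/βgeo on days 2, 4 and 8, and 0.11, 0.16 and 0.12 in wild type, with -0.020 between genotypes at day 0. For Prox1 over day 0 they were 0.077, 0.069 and 0.0054 in Kmt2d+/βgeo on days 2, 4 and 8, and 0.084 and 0.063 in wild type on days 2 and 4, with 0.0020 between genotypes at day 8.

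Restricting cells to 3000 to 8000 UMIs was chosen after seeing the data and moved 13 of 20 ratios, and the cause was not tested. Pax6 over day 0 became 1.16, 1.13 and 1.06 in Kmt2d+/βgeo on days 2, 4 and 8, and 0.91, 1.08 and 0.93 in wild type, so 4 of the 6 then passed a log2 ratio of 1. Pax6 between genotypes became -0.29 at day 0 and -0.24 at day 4. Prox1 over day 0 became 0.95 and 0.061 in Kmt2d+/βgeo on days 4 and 8 and -0.050 in wild type on day 8, and between genotypes 0.30 at day 4 and 0.012 at day 8. Of the joint detection ratios, wild type at day 2 became 1.13 and Kmt2d+/βgeo at day 8 became 1.04 at 5000 UMIs, and the latter 1.32 without thinning. Without thinning the highest median correlation was 0.15 with Prox1 and 0.071 with Pax6.

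The counts of all genes past a log2 ratio of 1 depended on the filter and the scale. With the main filter 1264 genes were higher and 846 lower at day 8 in wild type, 1477 and 1078 in Kmt2d+/βgeo, 48 and 62 between genotypes at day 0, and 156 and 213 at day 8. With a minimum of 0.5 fewer genes were compared and these became 575 and 496, 677 and 625, 12 and 15, and 64 and 112. On mean log2 values they were 97 and 128, 80 and 193, 1 and 1, and 4 and 26, and with no minimum 99 and 111 between genotypes at day 0.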
